A study of Mus musculus with 35 samples.

Results

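The epiblast of the mouse embryo was compared between embryonic day 6.5 (E6.5) and embryonic day 7.5 (E7.5), across the first day of gastrulation. The libraries were chosen by the stage their labels give, 3 of E6.5 and 3 of E7.5, which are 6 of the 35 samples of the series and 6 of its 27 bulk RNA libraries. Embryos of both stages were wild-type, untreated, of the CD-1 strain and of either sex as labelled, and the study's methods also name matings of Pdgfrα:H2B-GFP reporter mice. Each library came from a pool of several embryos. Visceral endoderm and extra-embryonic ectoderm were taken off by hand after a buffer without enzyme, and at E7.5 the allantois was removed with them. By the protocol this left the rest of the embryo proper at E7.5, with no sort for a cell type. Markers of the removed tissues were still measured in these bulk libraries and are given below. In such bulk RNA, fewer cells of a type and less RNA per cell cannot be told apart.

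Gastrulation turns the epiblast, a pluripotent epithelium, into the germ layers. Nodal, Wnt and BMP signals mark out the primitive streak at its posterior side, where cells leave the epithelium as mesoderm and definitive endoderm, while anterior cells that stay in it become ectoderm. As the streak elongates, early anterior and cardiac fates give way to paraxial and posterior ones, and the Hox genes come on in the order in which they lie in their clusters.

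Expression was given as TPM, transcripts per 1000000, in which each gene is a share of its library corrected for length and the number of reads cannot be recovered. Values were above 0 for 21881 to 23132 genes at E6.5 and for 23954 to 26751 at E7.5. Replicates lay closer to each other than to the other stage, with correlations across genes of 0.965 to 0.975 within E6.5, 0.982 to 0.986 within E7.5 and 0.907 to 0.927 between stages. The test took in 13359 autosomal genes that exceeded 2 TPM in 3 or more of the 6 libraries and used limma on log2(TPM + 1), so a fold change is on that scale and understates the change of genes with low values. A gene is said to have risen or fallen where its Benjamini-Hochberg adjusted p was below 0.05 and its log2 fold change from E6.5 to E7.5 was above 1 or below -1. By this rule 1792 genes rose (13.4%) and 273 fell (2.04%). When only the 10941 protein-coding genes were tested, 1224 rose (11.2%) and 200 fell (1.83%). Nuclear protein-coding genes took 59.5% to 61.8% of all TPM at E6.5 and 67.6% to 68.4% at E7.5, and the median gene had a log2 fold change of 0.33. When TPM were rescaled so that this median was 0.00, 1120 genes rose (8.38%) and 462 fell (3.46%), and the share of calls that were rises went from 86.8% to 70.8%. All 1120 of these genes had also risen without rescaling, and all 273 genes that had fallen still fell. The plot of all fold changes shows the shift, and counts under both scalings are given below. Each list count is to be read beside the shares over all genes, which were 13.4% risen and 2.04% fallen. With rescaled TPM these shares were 8.38% and 3.46%. A gene below 2 TPM in every library of 1 stage passed the filter only through the other stage, so its direction was fixed beforehand. Counts of lists that hold such genes run that way by construction.

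**Figure D1:**
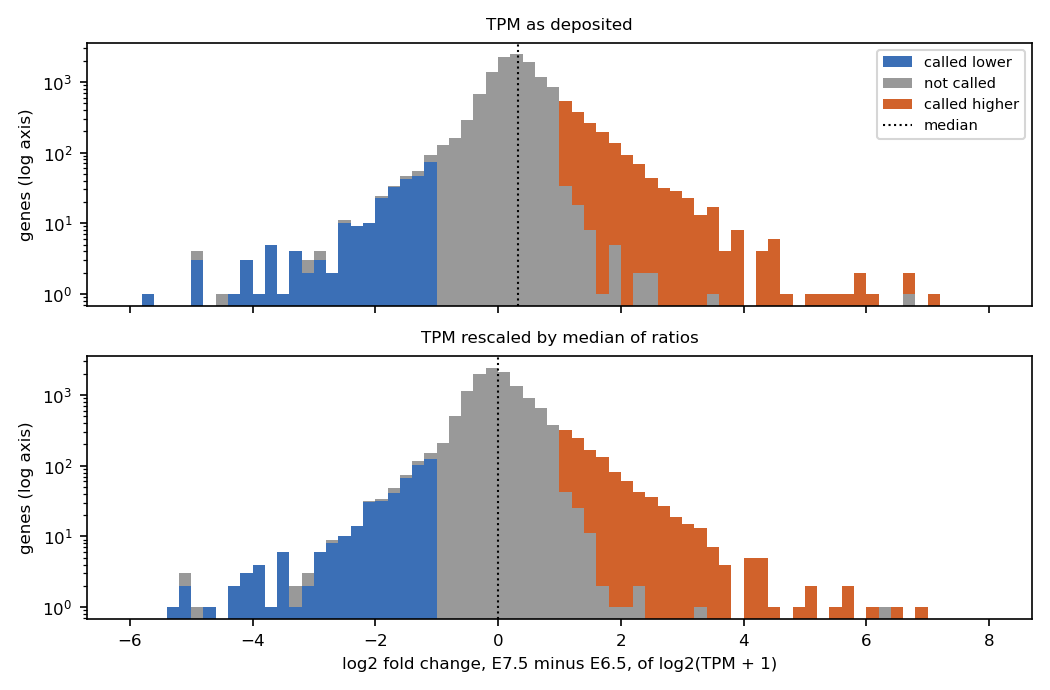
Number of genes (log axis) by log2 fold change of log2(TPM + 1) from E6.5 to E7.5, for TPM as deposited (top) and rescaled (bottom), with the dotted line at the median gene. The median moves from 0.33 to 0.00, and the long tails of risen and fallen genes stay under both scalings.

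The dissected tissue was checked against markers. The 12 epiblast markers had a summed level of 3594 to 4096 TPM at E6.5 and of 1834 to 1864 TPM at E7.5. Markers of visceral endoderm were well above 0 at both stages, at a sum of 3692 to 3766 TPM over 27 genes at E6.5 and of 4304 to 4424 TPM at E7.5. Apoe, a lipid carrier of that tissue, stood at 977 ± 63.2 TPM at E6.5 and 1087 ± 41.8 TPM at E7.5 (SD, n = 3), and Afp, alpha-fetoprotein, at 119 ± 15.2 and 100.3 ± 5.49 TPM. Of 25 visceral endoderm markers tested, 3 rose (Apoa2, Rbp4 and Fga) and 22 did not pass the test. The 3 were 12%, close to the 13.4% of all genes that rose. With rescaled TPM 1 rose (Apoa2) and 1 fell. Several endoderm genes described below are also expressed in visceral endoderm, and the part of that tissue in their values was not tested.

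Genes of the primitive streak moved in opposite directions. Of 18 tested, 8 rose (44.4%, against 13.4% of all genes) and 6 fell (33.3%, against 2.04%) under either scaling. The median log2 fold change was 0.07 (0.33 over all genes). Cdx1, Nkx1-2 and Wnt3a were below 2 TPM at E6.5, and Gsc and Wnt3 at E7.5, so the filter fixed their directions. Genes of the early streak were among those that fell, and genes that mark its posterior end and the cells below it were among those that rose.

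T (Brachyury; chr17:8434423-8442496, plus strand, mm10) encodes the T-box factor of the streak and the notochord. It was measured at 31.0, 28.1 and 30.3 TPM in the 3 libraries of E6.5 and at 98.4, 97.9 and 93.1 TPM in those of E7.5. The stages did not overlap, as for 61.1% of all genes tested, and the log2 fold change was 1.66 ± 0.09 (SE; limma, adjusted p = 4.79e-05). Eomes (chr9:118478212-118486132, plus strand), a T-box factor that specifies cardiac mesoderm and definitive endoderm, went the other way. Its level was 173, 159 and 146 TPM at E6.5 and 3.70, 5.09 and 3.52 TPM at E7.5, a fall by 4.99 ± 0.14 on the log2 scale (SE; limma, adjusted p = 7.33e-06). Mean TPM of Eomes was 38.9 times as high at E6.5 as at E7.5.

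Other genes of the early streak fell with Eomes. Mixl1, a homeobox gene of nascent mesendoderm, went from 61.1, 54.1 and 46.0 TPM to 5.34, 5.49 and 5.16 TPM. The organizer gene Gsc went from 39.2, 30.6 and 29.9 TPM to 0.913, 1.08 and 0.984 TPM. Every E6.5 library was above every E7.5 library for both. Wnt3, the ligand that starts the streak, fell by 2.63 on the log2 scale and Fgf8, needed for cells to move away from it, by 2.57. Cyp26a1, which breaks down retinoic acid, fell by 1.01, a change at the threshold.

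Among the streak genes that rose, Cdx1 and Nkx1-2 were nearly off at E6.5. Cdx1, a caudal homeobox gene that acts on Hox genes, was at 0.376, 0 and 0 TPM at E6.5 and at 119, 130 and 121 TPM at E7.5. Nkx1-2, a marker of the caudal epiblast beside the streak, was at 0.249, 1.10 and 0.755 TPM and then at 84.1, 81.2 and 85.8 TPM. Cdx2 rose by 3.23 ± 0.19 (SE), Wnt3a by 3.38 ± 0.11 and Wnt8a by 2.90 ± 0.15 on the log2 scale. The 4 tested members without a call were Evx1, Sp5, Fst and Fgf17. Cdx4, a caudal gene on the X chromosome that was not tested, was listed at 0 in the E6.5 libraries and at 9.26, 10.1 and 7.91 TPM at E7.5.

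To show promoter sequence of streak genes that have been studied as direct Wnt targets, the 250 bases before the RefSeq start (GRCm38.p6) are given for T and Msgn1, which rose, and for Sp5, which had no call. Capitals mark the core motif of TCF/LEF factors, the nuclear effectors of Wnt signalling, searched as CTTTGA on both strands and so also as TCAAAG. RefSeq places the start of Msgn1 slightly inside the gene as the deposited file bounds it. The stretches are chr17:8434173-8434422 on the plus strand for T, chr12:11208949-11209198 on the minus strand for Msgn1, and chr2:70474673-70474922 on the plus strand for Sp5.
T: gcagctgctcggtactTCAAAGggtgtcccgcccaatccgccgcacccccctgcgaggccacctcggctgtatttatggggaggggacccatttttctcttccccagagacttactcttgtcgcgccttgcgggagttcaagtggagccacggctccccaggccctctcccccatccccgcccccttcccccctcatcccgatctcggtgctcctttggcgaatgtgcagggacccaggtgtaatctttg
Msgn1: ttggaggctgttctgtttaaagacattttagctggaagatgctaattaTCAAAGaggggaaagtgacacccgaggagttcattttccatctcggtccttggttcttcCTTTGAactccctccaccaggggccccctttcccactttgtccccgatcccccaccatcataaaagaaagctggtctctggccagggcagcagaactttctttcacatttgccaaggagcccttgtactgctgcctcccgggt
Sp5: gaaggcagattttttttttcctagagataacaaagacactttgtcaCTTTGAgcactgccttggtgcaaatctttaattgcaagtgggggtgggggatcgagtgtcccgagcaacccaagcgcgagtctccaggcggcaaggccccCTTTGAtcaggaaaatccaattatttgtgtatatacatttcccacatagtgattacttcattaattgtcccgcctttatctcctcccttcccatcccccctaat
T held 1 match, which begins 234 bases before the start, and Msgn1 and Sp5 held 2 each. Such matches are common, at 13.8% of the 32851 RefSeq entries. The share was 11.3% of 1305 entries for genes that rose, 12.1% of 199 entries for genes that fell and 9.62% of 9797 entries for genes without a call, of which 8780 of the 13359 tested genes could be matched by symbol. Axin2, Tbx6, Cdx2, Nkx1-2, Nodal, Tdgf1 and Eomes held no such letters in this window of their first RefSeq entry. Any further entries of these genes were not looked up. A match describes the sequence and not a bound site.

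**Figure D2:**
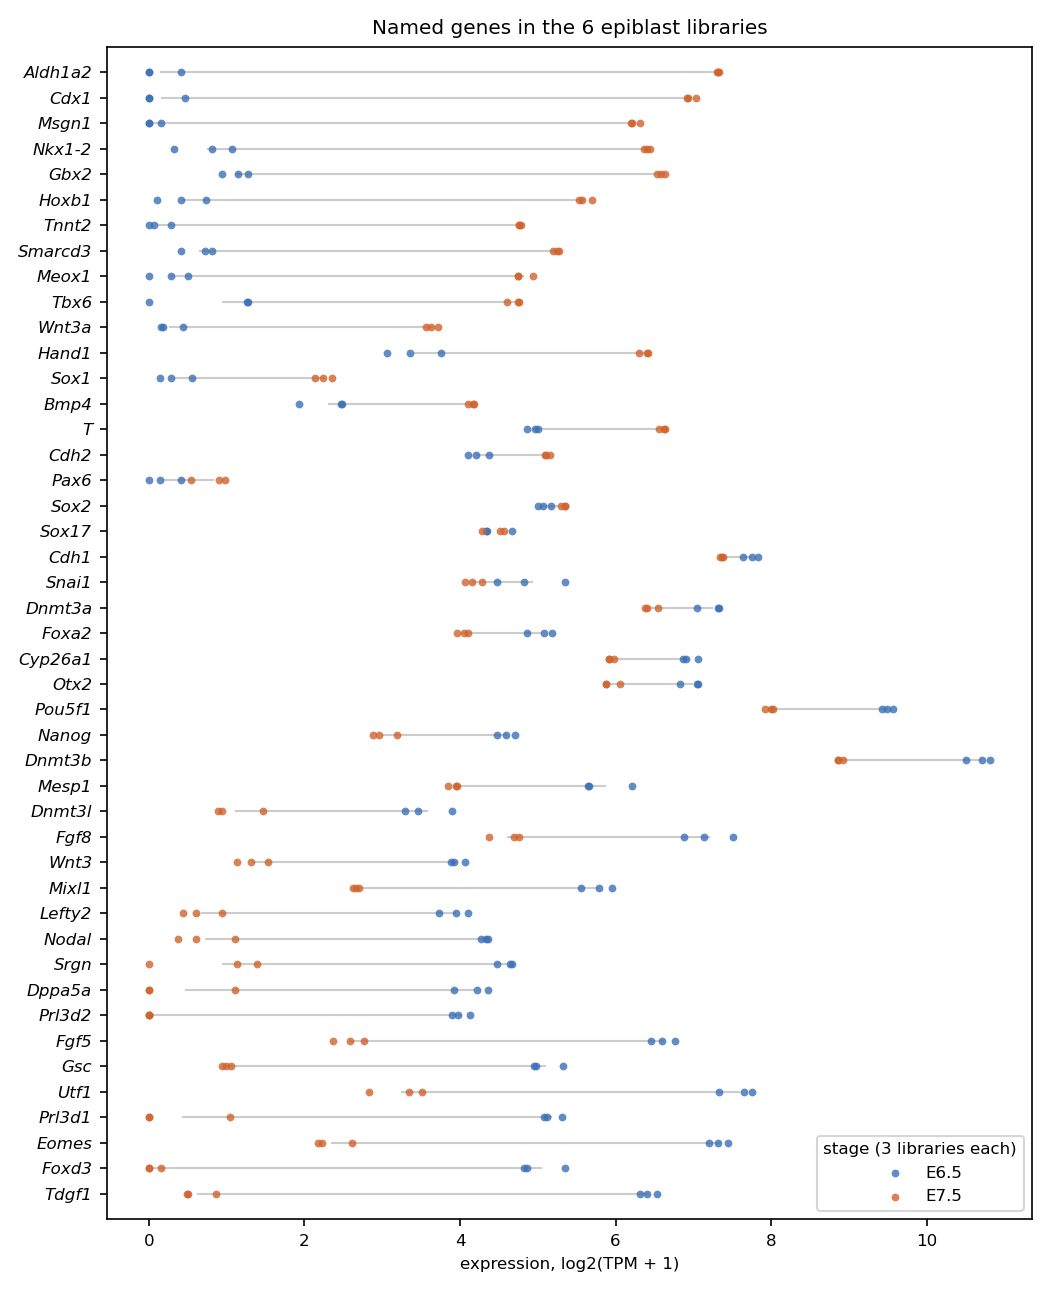
Expression as log2(TPM + 1) in each of the 6 libraries (points; blue E6.5, orange E7.5) for the defining genes and the largest changes, with a grey line between the stage means, ordered by fold change. Eomes, Tdgf1 and Foxd3 stand at the bottom and Aldh1a2, Cdx1 and Msgn1 at the top, while Sox2 and Sox17 lie near no change.

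Most mesoderm genes tested rose. Of 38 genes, 37 were tested, and 28 rose, 3 fell and 6 had no call under either scaling. These were 75.7% risen and 8.11% fallen, against 13.4% and 2.04% of all genes. The median log2 fold change was 2.84. A gene that is off at E6.5 passes the filter on low values only through E7.5, so such counts run towards rises by construction where a list holds many of these genes. The summed level of the list was 361 to 458 TPM at E6.5 and 1486 to 1525 TPM at E7.5.

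Paraxial genes, of the tissue that forms the somites, came on at E7.5. Msgn1 (chr12:11208360-11208972, minus strand), which drives cells from the streak into presomitic mesoderm, was at 0.111, 0 and 0 TPM at E6.5 and at 72.7, 78.3 and 73.5 TPM at E7.5. Tbx6, which turns such cells from a neural to a mesodermal fate, went from 1.41, 0 and 1.41 TPM to 23.4, 25.8 and 26.2 TPM. The log2 fold changes were 6.19 ± 0.09 and 3.86 ± 0.34 (SE). Meox1, a homeobox gene of the somites, rose by 4.55 ± 0.15, and Foxc2, a forkhead gene of paraxial mesoderm, by 4.30 ± 0.13.

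Cardiac and lateral genes rose beside them. Tnnt2, cardiac troponin T, was at 0.214, 0.042 and 0 TPM at E6.5 and at 26.6, 26.1 and 26.0 TPM at E7.5. Smarcd3, a chromatin remodelling subunit of cardiac progenitors, was at 0.655, 0.330 and 0.750 TPM and then at 35.6, 37.7 and 36.8 TPM. No library of the other stage came near these levels. Hand1, a factor of extra-embryonic and cardiac mesoderm, was already at 12.6, 7.34 and 9.29 TPM at E6.5 and rose to 84.5, 77.7 and 83.8 TPM. Nkx2-5, the early cardiac homeobox gene, was listed at 0 in the libraries of E6.5 and stood at 4.00 ± 0.575 TPM at E7.5 (SD, n = 3). Hand2 and Foxf1, of lateral mesoderm, rose by 4.51 and 4.28 on the log2 scale.

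The 3 mesoderm genes that fell are genes of nascent mesoderm. Mesp1, which marks the first cardiac progenitors leaving the streak, went from 73.3, 49.6 and 48.9 TPM to 14.6, 14.4 and 13.3 TPM, a fall by 1.92 ± 0.17 (SE; limma, adjusted p = 0.000346). Lhx1, a LIM homeobox gene of anterior mesendoderm, fell by 2.48 and Mesp2 by 1.42.

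Some genes of blood and endothelium rose from low levels. Of 26 genes, 9 were below the filter and 16 were tested. Among those tested, 8 rose (50%, against 13.4% of all genes), 8 had no call and none fell, and with rescaled TPM 7 rose. Any member below 2 TPM at E6.5 could pass the filter only through E7.5, so this count runs towards rises. Lmo2 rose by 3.21, Fli1 by 2.87, Tal1 by 2.61 and the VEGF receptor Kdr by 2.57 on the log2 scale, all of them regulators or receptors of the haemato-endothelial lineage. The embryonic globins Hba-x, Hbb-bh1 and Hbb-y were listed at 0 in all 6 libraries.

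Hox genes were close to absent at E6.5. Their 39 symbols stand for 40 identifiers in the file, of which 28 were below the filter. The list summed to 2.29 to 3.06 TPM at E6.5, so the 12 genes tested passed the filter through E7.5 and had to be higher there, and that they rose is no result about the list. Hoxb1 (chr11:96365752-96368256), the 3′-most Hoxb gene, was at 0.076, 0.328 and 0.656 TPM at E6.5 and at 45.3, 46.4 and 50.7 TPM at E7.5, a log2 fold change of 5.18 ± 0.17 (SE; limma, adjusted p = 9.12e-06). The stages were far apart. Levels at E7.5 were lower further along the Hoxb cluster, at 15.3 ± 3.51 TPM for Hoxb2, 10.2 ± 0.812 TPM for Hoxb3 and 8.27 ± 0.152 TPM for Hoxb4 (SD, n = 3), with no overlap between libraries of neighbours in this series. Further along, Hoxb5 was at 1.54 ± 0.457 TPM, Hoxb6 at 6.03 ± 1.25, Hoxb7 at 2.35 ± 0.340, Hoxb8 at 4.46 ± 1.55 and Hoxb9 at 2.49 ± 0.304 TPM, so the order was not strict. Hoxb7 and Hoxb9 overlapped. Hoxa9, Hoxa10, Hoxb13 and the genes numbered 10 to 13 of the Hoxc and Hoxd clusters stayed below 2 TPM in every library, as did the Hoxc genes as a whole. Hox genes overlap antisense and neighbouring transcripts, and the sources used here do not state how reads were split among them.

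**Figure D3:**
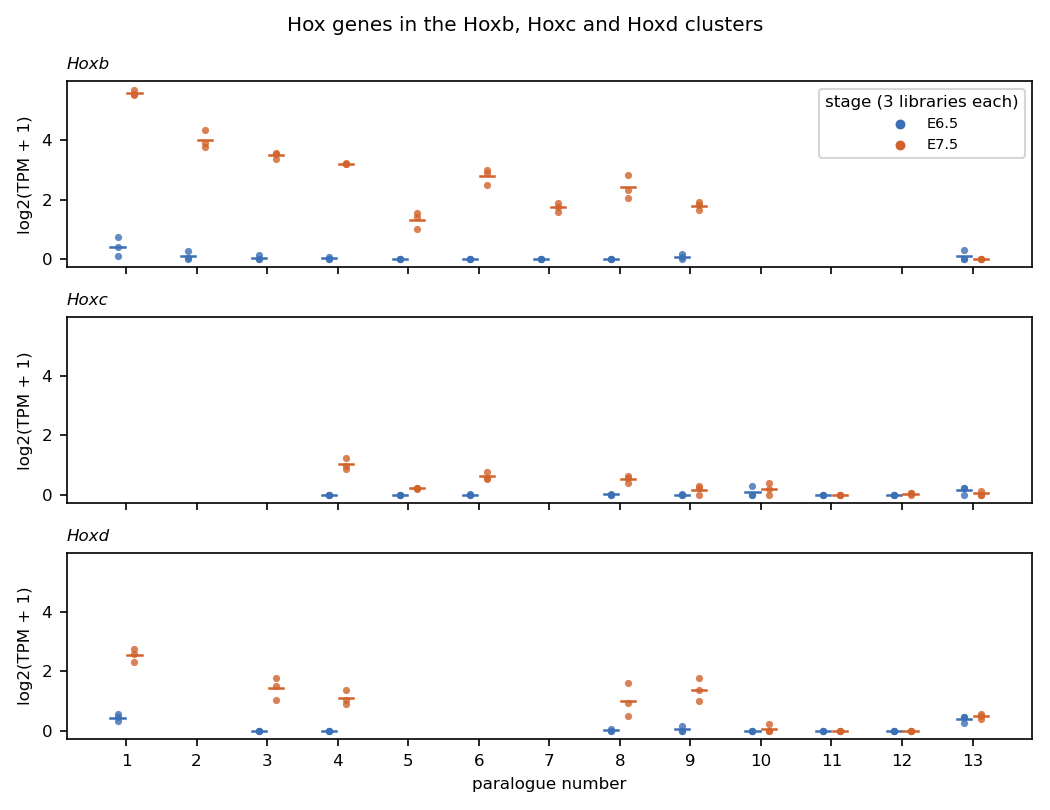
Expression as log2(TPM + 1) of the genes of the Hoxb, Hoxc and Hoxd clusters (panels) by paralogue number (x axis), with points for libraries and bars for means of log2 values (blue E6.5, orange E7.5). At E7.5 the signal of the Hoxb cluster is highest at Hoxb1, and all panels stay below 2 TPM from paralogue 10 onwards, while E6.5 lies near 0 for most genes.

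Genes of neural and surface ectoderm were divided. Of 36 genes, 12 were below the filter and 23 were tested, of which 12 rose, 9 had no call and 2 fell. These were 52.2% risen and 8.7% fallen, against 13.4% and 2.04% of all genes. The median log2 fold change was 1.64, and with rescaled TPM 12 rose and 3 fell. Members below 2 TPM at E6.5, Gbx2 and Sox1 among them, passed the filter only through E7.5. The count of rises and the median therefore run upwards by construction. Gbx2, which sets the posterior border of the midbrain, had the largest change, from 1.21, 1.42 and 0.919 TPM to 98.5, 94.8 and 92.0 TPM. Irx5 rose by 3.89 ± 0.15 and Irx3 by 3.11 ± 0.26, both of them Iroquois patterning genes, Dlx5, of the border of the neural plate, by 3.51 ± 0.13, and Tfap2a, of surface ectoderm, by 3.06 ± 0.16 (SE). Sox1, the earliest marker restricted to neural ectoderm, was at 0.103, 0.222 and 0.470 TPM and then at 4.13, 3.73 and 3.41 TPM. Its log2 fold change was 1.92 ± 0.13 (SE), from a level that stayed low. The anterior genes Hesx1 and Six3 rose by 2.24 and 2.76. Pax6 was below the filter, at 0.146 ± 0.169 TPM at E6.5 and 0.764 ± 0.276 TPM at E7.5 (SD, n = 3). Otx2 and Zic2, which the epiblast already holds before the ectoderm forms, fell.

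Genes of axial mesendoderm and definitive endoderm did not move as a group. Of 24 tested, 5 rose (20.8%, against 13.4% of all genes) and none fell. The median was 0.34, against 0.33 over all genes, and with rescaled TPM 3 rose and 3 fell. The 5 were Sox9 (3.13), Shh (2.47), Noto (2.42), Frzb (1.09) and Krt8 (1.01), given as log2 fold changes, and Frzb and Krt8 had no call after rescaling. Shh, the signal of the notochord, was listed at 0 in the E6.5 libraries and stood at 4.55, 4.75 and 4.28 TPM at E7.5. Noto, a homeobox gene of the node, was at 0.347, 0.640 and 0 TPM and then at 7.27, 4.78 and 6.02 TPM. Both are low levels with no overlap between stages. Sox17, which defines definitive endoderm, was at 24.5, 19.15 and 19.4 TPM and then at 18.4, 21.8 and 22.7 TPM, and the stages overlapped. Foxa2, of node, notochord and endoderm, was at 35.2, 33.0 and 28.0 TPM and at 15.6, 14.6 and 16.2 TPM. Its change lay just inside the threshold, without a call, and it fell by 1.34 when rescaled. Visceral endoderm also expresses Sox17, Foxa2, Gata4, Gata6 and Hhex.

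Pluripotency genes fell in part. Of 22 tested, 10 fell (45.5%, against 2.04% of all genes) and none rose under either scaling, at a median log2 fold change of -0.15. Pou5f1 (Oct4; chr17:35506018-35510772), the POU factor of pluripotency, went from 760, 689 and 716 TPM to 241, 255 and 258 TPM. Nanog went from 23.1, 21.2 and 25.2 TPM to 6.76, 6.39 and 8.10 TPM. The falls were 1.52 ± 0.09 and 1.58 ± 0.12 on the log2 scale (SE), so neither gene was off at E7.5. Utf1, a chromatin factor of pluripotent cells, fell further, from 215, 200 and 160 TPM to 6.13, 10.4 and 9.13 TPM. Among the largest falls were also Dppa5a (3.80), Esrrb (3.39) and Dppa4 (2.88). Esrrb is also a marker of extra-embryonic ectoderm in the lists below, and the part of that tissue in its fall was not tested. Any member below 2 TPM at E7.5 could pass the filter only through E6.5, so the count of falls runs that way.

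Other genes of the same list had no call. Sox2, which pluripotent and neural cells share, was at 32.6, 34.9 and 31.2 TPM at E6.5 and at 38.4, 39.8 and 39.9 TPM at E7.5, a log2 fold change of 0.25 ± 0.09 (SE; limma, adjusted p = 0.054) whose sign turned with rescaling, to -0.10. Sall4 was at 215 ± 21.0 and 256 ± 4.80 TPM and Lin28a at 335 ± 10.4 and 517 ± 7.54 TPM, both given as SD with n = 3. Trim71 was at 109, 110 and 90.3 TPM and then at 113, 115 and 115 TPM. For all 4 genes every E7.5 library was above every E6.5 library in TPM as deposited, by less than the threshold.

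Genes of the formative and primed epiblast, the states between naive pluripotency and gastrulation, had a median log2 fold change of -0.98, the lowest of the lists apart from the epiblast markers. Of 20 tested, 10 fell (50%, against 2.04% of all genes) and 1 rose (5%, against 13.4%). With rescaled TPM 14 fell and 1 rose. Fgf5, the ligand that marks the early post-implantation epiblast, was at 87.2, 108 and 95.8 TPM and then at 5.02, 5.79 and 4.15 TPM. Foxd3, a forkhead factor needed to keep the epiblast, was at 40.0, 28.0 and 27.4 TPM and then at 0, 0 and 0.118 TPM. Both were among the 10 largest falls of all protein-coding genes. Foxd3, below 2 TPM at E7.5, passed the filter only through E6.5. Pou3f1 fell by 2.54, Otx2 by 1.04 and Zic2 by 1.31 on the log2 scale. The gene that rose was Tcf15, a bHLH factor of both the early epiblast and paraxial mesoderm, at 5.00, 5.25 and 0.798 TPM and then at 19.6, 16.3 and 19.6 TPM.

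**Figure D4:**
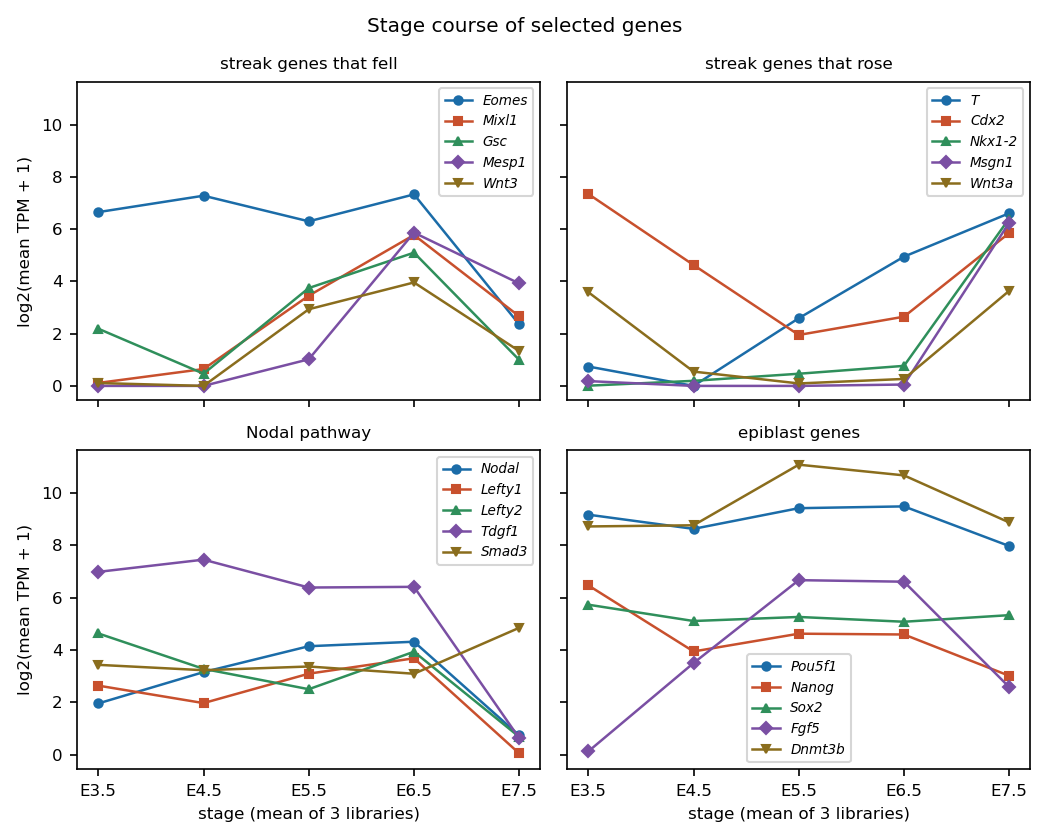
Mean expression of 3 libraries as log2(mean TPM + 1) at the 5 stages from E3.5 to E7.5 for 4 sets of genes. Libraries of E3.5 and E4.5 were fragmented differently, and their levels are not compared with the later ones. Eomes, Nodal, Tdgf1, Lefty1, Lefty2 and Fgf5 drop between E6.5 and E7.5, T climbs from E5.5 on, and Sox2 stays near its level.

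Earlier stages of the series, plotted as stage courses, place these changes. They entered no test here except the alternative fit of all 15 in vivo libraries. T was at 5.02 ± 0.805 TPM at E5.5 (SD, n = 3), below its level at E6.5. Mixl1 was at 9.94 ± 0.498 TPM and Wnt3 at 6.64 ± 0.864 TPM at E5.5, both below E6.5 and above E7.5 in mean. Fgf5 was at 101 ± 6.21 TPM at E5.5, close to E6.5. Libraries of E3.5 and E4.5 were fragmented for longer at a lower temperature. The plot shows them beside the later stages, but their levels are not compared with the later ones here.

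The DNA methyltransferase genes Dnmt3b, Dnmt3c and Dnmt3l fell. Dnmt3b (chr2:153649450-153687730), which sets new DNA methylation, was at 1800, 1676 and 1452 TPM at E6.5 and at 464, 464 and 485 TPM at E7.5, a fall by 1.80 ± 0.11 (SE; limma, adjusted p = 8.05e-05). Dnmt3l, its partner without catalytic activity, fell by 2.46 ± 0.22 and Dnmt3c by 2.19 ± 0.11, although Dnmt3c is a duplicate of Dnmt3b whose reads may be shared. Dnmt3a was at 150 ± 16.3 and 86.1 ± 5.51 TPM (SD, n = 3) with a change of -0.79 and no call, and it fell by 1.15 when rescaled. The maintenance enzyme Dnmt1 was at 147 ± 12.5 and 172 ± 9.69 TPM, also without a call. Tet2, which oxidises methylcytosine, rose by 1.79. Over the 16 genes of the list, 3 rose (18.8%, against 13.4% of all genes) and 3 fell (18.8%, against 2.04%). With rescaled TPM 1 rose and 4 fell.

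Nodal and its close partners fell together, and the rest of the pathway had few calls. Of 18 genes tested, 4 fell (22.2%, against 2.04% of all genes) and 1 rose (5.56%, against 13.4%). The median was 0.19, and with rescaled TPM 6 fell and 1 rose. Nodal, the ligand, was at 19.5, 18.2 and 19.15 TPM at E6.5 and at 0.300, 0.528 and 1.16 TPM at E7.5. Tdgf1 (Cripto; chr9:110939603-110946158), its co-receptor, had the largest fall of all protein-coding genes, from 91.4, 78.8 and 83.4 TPM to 0.416, 0.814 and 0.410 TPM. This fall was 5.80 ± 0.13 on the log2 scale (SE; limma, adjusted p = 5.23e-06). Tdgf1 has pseudogene copies in the genome that can share its reads. The inhibitors Lefty1 and Lefty2, which Nodal itself induces, went from 11.04, 12.1 and 12.4 TPM to 0, 0.096 and 0 TPM and from 16.2, 12.3 and 14.4 TPM to 0.358, 0.926 and 0.518 TPM. In each of these genes the stages were far apart. All of them were below 2 TPM in every E7.5 library and passed the filter only through E6.5. The count of falls therefore runs that way by construction. The receptors Acvr1b, Acvr2a and Acvr2b and the effectors Smad2, Smad4 and Foxh1 had no call, and Smad3 rose from 7.53 ± 0.932 to 27.9 ± 1.28 TPM (SD, n = 3).

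Wnt ligands moved in both directions. Of 46 genes of the pathway tested, 21 rose (45.7%, against 13.4% of all genes) and 2 fell (4.35%, against 2.04%) at a median of 0.80, and 16 rose and 4 fell with rescaled TPM. Wnt3 was at 15.7, 14.2 and 13.7 TPM at E6.5 and at 1.88, 1.19 and 1.49 TPM at E7.5. Wnt3a was at 0.132, 0.358 and 0.118 TPM and then at 12.1, 11.4 and 10.9 TPM. The ligands had nearly exchanged levels. Wnt3a, below 2 TPM at E6.5, and Wnt3, below 2 TPM at E7.5, each passed the filter through 1 stage only. Their directions were therefore fixed beforehand. Wnt8a and Wnt5a rose by 2.90 and 2.68 on the log2 scale, and the receptor Fzd10 by 2.86. Among genes that Wnt signalling induces, Axin2 rose from 32.4 ± 1.37 to 87.9 ± 1.68 TPM and Notum from 0.128 ± 0.129 to 4.59 ± 0.266 TPM (SD, n = 3). Sp5, a further target and a member of the streak list, was at 30.1 ± 7.10 and 34.2 ± 1.52 TPM without a call.

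Among BMP genes 16 of 25 tested had no call. There were 8 that rose (32%, against 13.4% of all genes) and 1 that fell (4%, against 2.04%) at a median of 0.79 (7 and 2 with rescaled TPM). Bmp4, the ligand that acts on the posterior epiblast and the germ line, was at 4.596, 2.80 and 4.54 TPM and then at 17.2, 16.9 and 16.2 TPM. Bmp5 rose by 2.84, the target gene Msx2 by 2.51 and the ligand Bmp7 by 2.36 on the log2 scale. Bmp8b, a ligand of the extra-embryonic ectoderm, fell by 1.43.

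In the FGF pathway the ligands Fgf5 and Fgf8 fell and the receptors Fgfr1, Fgfr2 and Fgfr3 rose. Of 24 genes tested, 8 rose (33.3%, against 13.4% of all genes) and 3 fell (12.5%, against 2.04%). The median was 0.11, and 4 rose and 5 fell with rescaled TPM. Fgf8 was at 182, 140 and 117 TPM at E6.5 and at 19.7, 24.9 and 26.0 TPM at E7.5, and Fgf5 fell as given above. Fgfr2 went from 7.47, 9.81 and 7.01 TPM to 83.8, 83.9 and 78.8 TPM. Fgfr3 rose by 2.32 and Fgfr1 by 2.03 on the log2 scale, under either scaling. Etv5, a transcription factor induced by FGF, fell by 1.11, and the feedback inhibitor Dusp6 had a change of -0.86 without a call (-1.21, a fall, when rescaled). The ligand Fgf3 rose by 1.22, with no call after rescaling.

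Retinoic acid genes included the largest rise of the comparison. Aldh1a2 (chr9:71215789-71296243), the enzyme that makes retinoic acid in the early embryo, was at 0.333, 0 and 0 TPM at E6.5 and at 157, 158 and 160 TPM at E7.5. Its log2 fold change of 7.18 ± 0.13 (SE; limma, adjusted p = 3.37e-06) was the largest of all protein-coding genes, on a scale where the added 1 TPM sets the size for a gene near 0. Crabp1 and Crabp2, which bind retinoic acid in the cell, rose by 3.42 and 2.80, and the receptor Rarb, itself a target, by 3.20. Cyp26a1 was at 133, 116 and 119 TPM and then at 62.1, 59.6 and 59.2 TPM. Of 17 genes tested, 9 rose (52.9%, against 13.4% of all genes) and 1 fell (5.88%, against 2.04%). The median was 1.09, and with rescaled TPM 5 rose and 1 fell. Any member below 2 TPM at E6.5, such as Aldh1a2, could pass the filter only through E7.5, so the count of rises runs upwards.

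Some Notch and segmentation genes rose and most had no call. Of 21 tested, 8 rose (38.1%, against 13.4% of all genes) and 1 fell (4.76%, against 2.04%). The median was 0.77, and with rescaled TPM 7 rose and 1 fell. Any member below 2 TPM at E6.5, such as Hes7, could pass the filter only through E7.5, so the count of rises runs upwards. The ligand Dll1 was at 3.49, 3.04 and 3.37 TPM and then at 59.5, 55.8 and 51.3 TPM. Hes7, a repressor at the core of the segmentation clock, was at 0.336, 0.493 and 0 TPM and then at 13.2, 15.2 and 14.6 TPM. Notch1 rose by 2.54 and Hes3, which was listed at 0 at E6.5, stood at 4.44 ± 1.99 TPM (SD, n = 3). The gene that fell was Mesp2.

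Most mesenchymal genes tested rose. Of 35 genes of epithelial-mesenchymal transition tested, 24 rose (68.6%, against 13.4% of all genes) and none fell. The median was 1.89, and with rescaled TPM 22 rose and 1 fell. Foxc2 and Acta2, smooth muscle actin, had the largest changes, at 4.30 and 4.25 on the log2 scale. Zeb2, a repressor of E-cadherin, was at 4.89, 6.21 and 2.03 TPM and then at 65.7, 53.2 and 53.8 TPM. Vim, the filament protein vimentin, was at 37.2, 37.8 and 37.4 TPM and then at 224, 231 and 227 TPM. Snai1, the repressor that starts the transition at the streak, was at 39.7, 27.4 and 21.4 TPM and then at 15.7, 18.5 and 16.9 TPM. Its change was -0.72 ± 0.22 (SE; limma, adjusted p = 0.0343) without a call, and it fell by 1.06 when rescaled, while its relative Snai2 rose by 3.27.

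Cadherins stayed within the threshold. Cdh1, E-cadherin, was at 215, 228 and 199 TPM at E6.5 and at 162, 166 and 165 TPM at E7.5, a change of -0.38 ± 0.09 (SE; limma, adjusted p = 0.0154). Cdh2, N-cadherin, was at 17.4, 19.7 and 16.2 TPM and then at 33.3, 33.2 and 34.7 TPM, a change of 0.89 ± 0.10 (adjusted p = 0.000874). Neither was called under either scaling, although the stages did not overlap for either gene. Over the epithelial list, 3 of 39 tested genes rose (7.69%, against 13.4% of all genes), among them Dsp and Krt8. Marveld3, Ovol2 and Crb3 fell (7.69%, against 2.04%). The other 33 had no call, as did 11294 of all 13359 genes tested, which is a like share. The median was -0.13, and with rescaled TPM none rose and 7 fell. Dsp, the desmosome protein desmoplakin, changed by 1.34 and Marveld3, of tight junctions, fell by 1.68.

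Basement membrane genes split. Of 20 tested, 4 rose (20%, against 13.4% of all genes) and 3 fell (15%, against 2.04%). The median was 0.38, and with rescaled TPM 2 rose and 5 fell. Nid1, which links laminin to collagen IV, fell by 1.89, Lama1 by 1.21 and Lamc1 by 1.10 on the log2 scale. Lama1 and Lamc1 encode chains of laminin 111, whose remaining chain gene, Lamb1, had a change of -0.40 without a call. Lama4, a laminin chain of vessels and mesenchyme, rose by 2.64 and Smoc2 by 1.63.

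Germ cell genes gave no common direction. Of 9 tested, 4 rose (Ifitm1, Alpl, Kit and Prdm1) and 1 fell (Dppa3), and 3 and 2 with rescaled TPM, at a median of 0.41. The 4 were 44.4%, against 13.4% of all genes, in a short list. Ifitm1 had the largest change, from 7.96, 10.9 and 9.03 TPM to 74.1, 96.9 and 96.8 TPM, and nascent mesoderm expresses it too. Prdm14 and Nanos3, which mark specified germ cells, were below the filter.

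**Figure D5:**
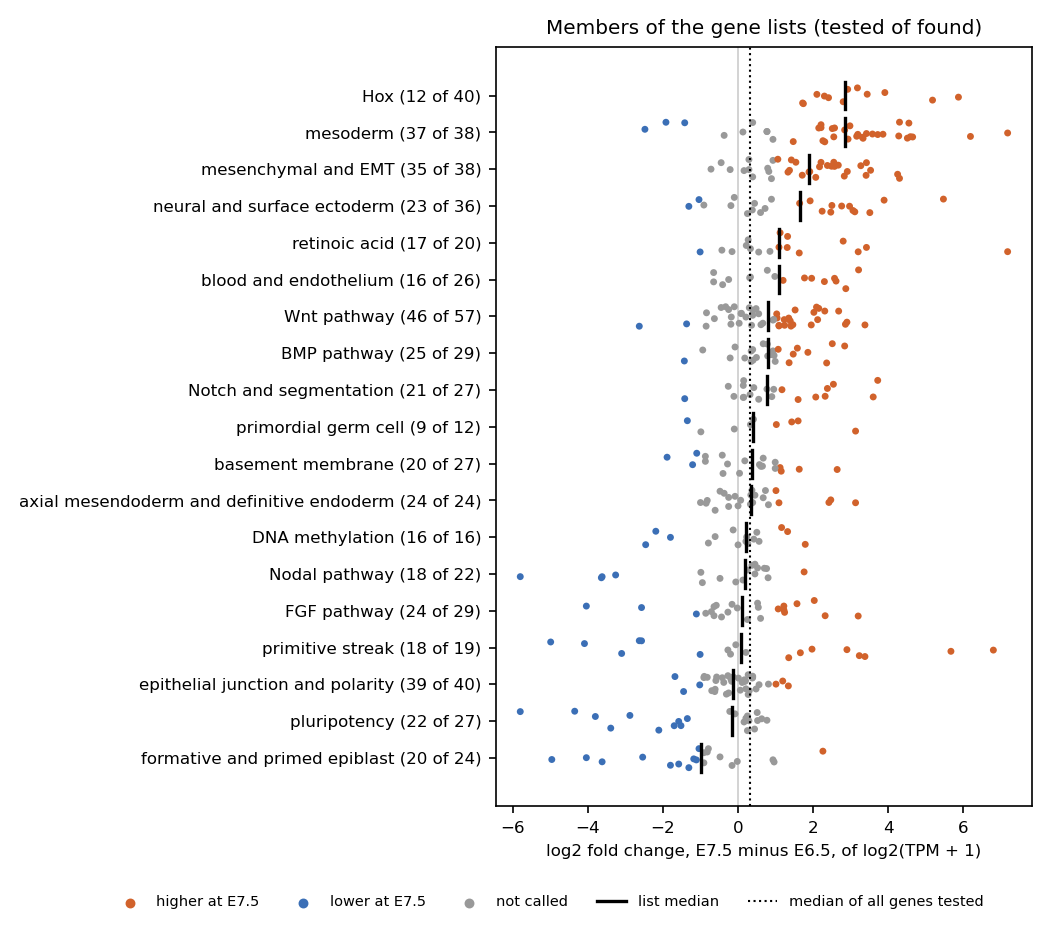
Log2 fold change from E6.5 to E7.5 of each tested member (points) of the gene lists, with list medians (bars), the median of all genes at 0.33 (dotted line) and, in brackets, members tested of those found. Hox, mesoderm and mesenchymal members lie to the right, formative and pluripotency members to the left, and the streak list spreads to both sides.

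Markers of tissues outside the epiblast moved as well. The extra-embryonic ectoderm list summed to 268 to 320 TPM at E6.5 and 294 to 310 TPM at E7.5. Of 14 tested, 6 fell (42.9%, against 2.04% of all genes) and 2 rose (14.3%, against 13.4%) under either scaling. Elf5, its defining gene, was at 5.06, 4.59 and 4.71 TPM and then at 0, 0.093 and 0.579 TPM, and Esrrb fell by 3.39. Eomes belongs to this list too, at 160 ± 13.4 TPM at E6.5 beside 4.79 ± 0.241 TPM for Elf5 (SD, n = 3). Prl3d1 and Prl3d2, placental lactogens of trophoblast giant cells and near-identical copies, were among the 10 largest falls. Prl3d1 was at 33.0, 33.8 and 38.7 TPM and then at 0, 0 and 1.06 TPM. Srgn, a marker of parietal endoderm, was at 23.9, 21.2 and 24.5 TPM and then at 1.19, 0 and 1.63 TPM. The parietal endoderm list as a whole summed to 428 to 449 TPM and then to 359 to 362 TPM. Of 9 tested, 2 rose (22.2%, against 13.4% of all genes) and 2 fell (22.2%, against 2.04%). With rescaled TPM none rose and 2 fell.

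The allantois, decidua and adult-type blood lists had higher sums at E7.5, with the same counts of calls under either scaling. The allantois list summed to 10.3 to 13.6 TPM at E6.5 and 43.6 to 48.6 TPM at E7.5. Of its 13 genes, 8 were below the filter, and Bmp4, Isl1, Pitx1 and Tbx5 rose of 5 tested (80%, against 13.4% of all genes). Any member of these lists below 2 TPM at E6.5 could pass the filter only through E7.5, so such counts run towards rises. The defining gene of the allantois, Tbx4, was listed at 0 at E6.5 and at 2.15, 1.43 and 1.77 TPM at E7.5. The decidua list went from 24.3 to 29.9 TPM to 96.9 to 100.1 TPM, through Hand2 and Igfbp5, which embryonic mesoderm expresses too, and the decidual prolactin genes Prl8a2 and Prl3c1 stayed below the filter. Adult-type blood markers summed to 5.70 to 6.30 TPM and then to 35.0 to 40.2 TPM. Of these 13 genes, 8 were below the filter, and all 4 tested rose (100%, against 13.4% of all genes). Hba-a1, of adult haemoglobin and with a near-identical copy in Hba-a2, was at 1.92, 3.84 and 2.53 TPM and then at 20.4, 18.3 and 15.1 TPM. The leukocyte gene Ptprc was at or below 0.061 TPM in every library. The part of these tissues in the results above was not tested.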

How the data were processed

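Bulk RNA-seq of 3 E6.5 and 3 E7.5 epiblast pools was used. Libraries of both stages were made from total RNA with ribosomal cDNA depleted and were fragmented and amplified alike. The authors deposited TPM. Their methods name cutadapt 2.4 for trimming, STAR with the mm10 genome for alignment, and StringTie with the GENCODE VM19 annotation for the values. How StringTie was told of the strand is not given in the sources used here. TPM sum to 1000000 in each library, so depth is unknown and no counting interval is given. The file holds 54490 lines for 54446 genes, with lines of a repeated identifier added up (12 identifiers), and empty cells (on 54 lines of these libraries) were taken as 0. Coordinates are the file's own, and biotypes came from GENCODE vM21 (54409 genes). The 12 columns of cultured cells were not used.

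Autosomal genes exceeding 2 TPM in 3 or more of the 6 libraries (13359) were tested on log2(TPM + 1) with limma 3.58.1 in R 4.3.3 (lmFit, eBayes without trend, 2 groups, no covariate), with Benjamini-Hochberg adjustment over all of them. The study used DESeq2 on counts of all stages, which TPM do not allow. On simulated data of this size, 88 of 100 genes changed by 1.5 and 100 of 100 changed by 3 log2 units were called, with 1 unchanged gene called. Changed genes were drawn from those of higher mean level, with normal noise and no shift of the median gene between stages. Recovery of genes near 0 and the effect of such a shift were therefore not measured. Alternatives were a pseudocount of 0.1, no filter, protein-coding genes only, TPM rescaled by median-of-ratios factors (0.852 to 0.930 at E6.5 and 1.13 to 1.14 at E7.5), a variance trend with intensity, a fit of all 15 in vivo libraries, blocking on the replicate number, and leaving out each library. Other steps used Python 3.11.15, pandas 2.3.3, numpy 2.4.6 and matplotlib 3.10.9.

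Genes were named by rule: a set of defining genes, the top 10 protein-coding genes by size of change, up and down, among called genes whose stages do not overlap, and in each gene list up to 4 with the largest change and, for tissue markers, the called ones. Some genes that the rule names are not reported here. Other genes were chosen after their values were seen. The libraries compared and the gene lists were chosen with earlier results of these data known. The labels name no batch. Nothing shows whether pools of a stage came from separate litters, so p-values measure only the spread between these libraries.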

Additional observations from a re-analysis of the deposited data

How the results depend on the processing

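After median-of-ratios rescaling of TPM, 1120 genes rose and 462 fell, against 1792 and 273 in TPM as deposited, and Sox2 turned sign to -0.10. No other of the 13 alternatives moved either count by more than 1.5 times. Leaving out each library in turn gave 1698 to 1994 rises and 253 to 341 falls. A pseudocount of 0.1 gave 2166 and 307, no filter on low values 2202 and 294 of 30033 genes, protein-coding genes only 1224 and 200 of 10941, and all 15 in vivo libraries in the fit 1798 and 265. In the 12 settings compared that tested every gene, 1093 rises and 196 falls were called each time. Sox17, without a call, was at 0.11 without E6.5 replicate 1 and at 0.09 without E7.5 replicate 1, and went no lower than -0.06 without any other library. Cyp26a1 lost its call without E6.5 replicate 1 (-0.95) or without E7.5 replicate 3 (just inside the threshold), and Foxa2 passed the threshold with a pseudocount of 0.1, with rescaling, and without E6.5 replicate 3 (-1.09), E7.5 replicate 1 (-1.01) or E7.5 replicate 3 (-1.03). Of the list counts, 26 moved by more than 1.5 times, 14 of them with rescaling. The others were counts of 0 to 3 genes: formative genes risen went from 1 to 3 without E6.5 replicate 2, BMP genes fallen from 1 to 2 without E6.5 replicate 3, germ cell genes fallen from 1 to 2 without E6.5 replicate 1 or 3, E7.5 replicate 3 or with a pseudocount of 0.1, and endoderm genes fallen from 0 to 1 or 2 and retinoic acid genes fallen from 1 to 0 where Foxa2 and Cyp26a1 crossed. The cause was not tested. Depth cannot be read from TPM, so which low genes it limits is unknown.

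Replicate numbers did not pair the libraries: deviations from the stage means correlated at 0.041, -0.031 and 0.077 across genes between libraries of the same number. With the replicate number as a block, 1803 genes rose and 278 fell.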

Other observations

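Single imprinted genes are given here that were chosen for their values, with no count over imprinted genes. Igf2, a fetal growth factor, was at 44.5 TPM at E6.5 and 190 TPM at E7.5 (means of 3 libraries), with a log2 fold change of 2.07. Cdkn1c, a cell cycle inhibitor, went from 26.1 to 114 TPM, Phlda2 from 24.4 to 239 TPM, Dlk1 from 8.96 to 56.9 TPM and Peg3 from 134 to 456 TPM, and all of these rose under either scaling. H19, the non-coding RNA beside Igf2, was at 934 and 1397 TPM without a call. Among cyclins that drive G1, also chosen after seeing values, Ccnd2 rose from 5.06 to 84.1 TPM, while Ccnd1 was at 71.9 and 72.9 TPM and Ccnd3 at 63.3 and 79.0 TPM without a call. Of the Meis cofactors of Hox proteins, Meis1 rose from 1.31 to 25.2 TPM and Meis2 from 3.11 to 88.7 TPM. The glucose transporter Slc2a1 rose from 229 to 716 TPM, and the glycolytic enzyme gene Ldha was at 2046 and 1908 TPM without a call.

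Classes of annotation differed in how often their genes rose. Of 10941 protein-coding genes 1222 rose (11.2%), against 206 of 249 genes of class TEC, which are transcript models still to be verified (82.7%), 39 of 54 sense intronic transcripts (72.2%) and 63 of 169 miRNA precursors (37.3%). With rescaled TPM the rises were 165 of the TEC genes, 28 of the sense intronic transcripts and 46 of the miRNA precursors.

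Genes of the sex chromosomes were outside the test. Xist, expressed from the inactive X of female cells, was at 44.2 to 56.6 TPM at E6.5 and 50.6 to 52.9 TPM at E7.5. Of the Y-linked genes, Kdm5d was at 1.96 to 2.36 TPM and then 7.20 to 11.2 TPM, Uty at 2.99 to 3.75 and then 11.1 to 12.6 TPM, Ddx3y at 6.39 to 8.07 and then 11.6 to 13.9 TPM and Eif2s3y at 12.5 to 16.1 and then 21.9 to 30.3 TPM.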
